A study of Mus musculus with 72 samples.

Results

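The genes described here are those that copy DNA and divide the cell, measured by arrays of whole brain and whole liver from male mice at 4 stages, the embryonic stage E14.5 and postnatal days 1 and 7 (P1 and P7), and adults labelled P90 and given as 11 to 14 weeks old. The list held 40 genes, 20 for DNA replication and 20 for mitosis, and a gene was measured through the probe set that carries its symbol alone and has the highest mean over the 72 arrays. This gave 39 of the 40 genes, all 20 for replication and 19 for mitosis, out of 18194 genes with such a probe set. The mitotic cyclin gene Ccnb1 had none, so its signal was not analysed here, but its promoter is among those counted below. All 39 were above the filter on low signal in both tissues, meaning that the highest mean of any group exceeded a log2 signal of 6.66.

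The study compared 3 inbred strains, DBA/2J, 129S2 and C57BL/6J, with 3 arrays for each strain, tissue and stage. DBA/2J and C57BL/6J mice were bought from the Jackson Laboratory and 129S2 mice from Charles River France. The P90 mice were the purchased animals themselves, and the E14.5, P1 and P7 mice were their F1 offspring, so the adult stage differs from the others in where the animals grew up. The labels name no treatment. The labels do not say whether the 3 arrays of a group came from separate animals, or whether brain and liver arrays of the same number came from one animal, so p-values measure only the spread between these arrays.

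In dividing cells, replication origins are first loaded with the Mcm2 to Mcm7 helicase by Cdc6 and Cdt1, then fired and copied by polymerases held on the Pcna clamp. Mitosis follows under cyclin-bound Cdk1, with the Aurora and Polo kinases, a checkpoint that watches the spindle, and a ubiquitin ligase that ends the phase. Replication genes are largely switched by E2F factors, and mitosis genes through CCAAT boxes and an element called CHR near their start sites. In the mouse brain most neurons are born before birth, while cerebellar granule cells and glia still multiply after it. The fetal liver is a site of blood formation as well as of hepatocyte growth.

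The promoter sequences below mark these elements, where they occur, in 4 replication genes and 4 mitosis genes whose values the results turn on. Each runs 5′ to 3′ on the strand of its gene, from 150 bases before to 30 bases after the annotated start, 180 bases in all, taken from RefSeq annotation of build GRCm38.p6. Capitals mark 3 kinds of element. The CCAAT box is CCAAT, which reads as ATTGG on the other strand. The CHR is TTTGAA, which reads as TTCAAA on the other strand, or the palindrome TTTAAA. The E2F element is any of 4 runs on either strand, the letters TTCCCGC, the letters TTGGCGC, the letters TTCGCGC and the letters TTGCCGC. The replication genes are Mcm6, a helicase subunit (chr1:128359676-128359855, minus strand), Cdc6, a helicase loader (chr11:98908001-98908180, plus strand), Pcna, the sliding clamp (chr2:132253151-132253330, minus strand), and Rrm2, the small subunit of ribonucleotide reductase (chr12:24708104-24708283, plus strand).
Mcm6: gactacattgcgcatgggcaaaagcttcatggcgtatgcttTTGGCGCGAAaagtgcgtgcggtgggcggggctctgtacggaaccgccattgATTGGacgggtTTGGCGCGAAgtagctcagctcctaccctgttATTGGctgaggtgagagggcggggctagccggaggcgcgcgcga
Cdc6: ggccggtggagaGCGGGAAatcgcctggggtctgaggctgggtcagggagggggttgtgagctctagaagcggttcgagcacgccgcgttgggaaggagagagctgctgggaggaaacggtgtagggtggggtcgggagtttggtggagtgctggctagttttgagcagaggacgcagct
Pcna: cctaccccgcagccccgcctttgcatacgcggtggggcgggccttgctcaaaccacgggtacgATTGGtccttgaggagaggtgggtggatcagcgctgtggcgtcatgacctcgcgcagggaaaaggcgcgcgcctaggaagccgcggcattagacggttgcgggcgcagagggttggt
Rrm2: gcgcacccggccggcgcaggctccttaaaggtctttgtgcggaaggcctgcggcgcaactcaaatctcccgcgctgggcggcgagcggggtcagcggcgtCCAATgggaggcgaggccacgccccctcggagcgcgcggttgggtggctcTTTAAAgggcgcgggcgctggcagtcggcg
The mitosis genes are Cdk1, the mitotic kinase (chr10:69352883-69353062, minus strand), Ccnb2, a B-type cyclin (chr9:70421525-70421704, minus strand), Ube2c, the E2 enzyme of the anaphase-promoting complex (chr2:164769779-164769958, plus strand), and Cdca8, the borealin subunit of the chromosomal passenger complex (chr4:124936888-124937067, minus strand).
Cdk1: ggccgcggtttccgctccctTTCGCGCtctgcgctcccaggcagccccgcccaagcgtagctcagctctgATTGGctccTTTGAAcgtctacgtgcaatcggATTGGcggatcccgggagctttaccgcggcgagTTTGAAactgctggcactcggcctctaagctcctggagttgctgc
Ccnb2: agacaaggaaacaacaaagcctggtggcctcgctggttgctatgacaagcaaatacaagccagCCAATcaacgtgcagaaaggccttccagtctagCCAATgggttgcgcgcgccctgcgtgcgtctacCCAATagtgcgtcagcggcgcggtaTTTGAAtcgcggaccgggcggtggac
Ube2c: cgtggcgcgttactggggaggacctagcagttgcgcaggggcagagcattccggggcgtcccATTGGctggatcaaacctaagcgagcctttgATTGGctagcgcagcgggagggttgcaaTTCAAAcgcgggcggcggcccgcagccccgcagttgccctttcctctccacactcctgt
Cdca8: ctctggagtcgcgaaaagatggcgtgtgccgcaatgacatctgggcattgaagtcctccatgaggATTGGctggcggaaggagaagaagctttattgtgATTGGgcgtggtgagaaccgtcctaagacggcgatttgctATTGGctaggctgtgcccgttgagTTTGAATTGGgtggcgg
In the Mcm6 promoter the run TTGGCGCGAA occurs at 2 places, and each holds 2 overlapping E2F letters, TTGGCGC on one strand and TTCGCGC on the other. In the Cdca8 promoter the run TTTGAATTGG holds TTTGAA and ATTGG with shared letters. The stretches printed for Pcna and Rrm2 hold none of the E2F letters, and that of Rrm2 holds TTTAAA.

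The replication and mitosis promoters differed in which elements they held. Promoters of 250 bases before to 50 after the start were on hand for 33 of the 40 genes, 35 promoters in all because Mcm7 and Ect2 have 2 each. TTTGAA was found in 14 of 18 mitosis promoters (77.8%) and in 1 of 17 replication promoters (5.88%), against 17.9% of all 32851 promoters. The E2F letters were found in 6 of 18 mitosis promoters (33.3%) and 13 of 17 replication promoters (76.5%), against 9.57% of all promoters. CCAAT was common to both, in 15 of 18 mitosis promoters (83.3%) and 12 of 17 replication promoters (70.6%), against 37.4% of all. CCAAT and TTTGAA occurred together in 13 mitosis promoters (72.2%) and 1 replication promoter, against 6.95% of all. TTTAAA was found in 4 of the mitosis and 3 of the replication promoters, 22.2% and 17.6%, against 13.2% of all. A match is a run of letters, not a shown binding site. The counts describe the list and were not tested.

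One array stood apart before any result was drawn. The third C57BL/6J array of E14.5 brain had the lowest likeness to the other arrays of its tissue and stage among all 72, with a median correlation of 0.980 over genes, where the next lowest was 0.985. Its median signal over the 39 genes was 9.09 on the deposited log2 scale, against 9.96 to 10.69 in the other 8 arrays of E14.5 brain. Its summed signal of neuron markers was 15.14 log2 units, against 14.12 to 14.35 in those 8 and 15.08 to 15.33 on P1, while its summed signal of neural progenitor markers, 14.38, lay within their 14.16 to 14.68. Its summed signal of hepatocyte-list genes, which include Ttr, a gene also made in the choroid plexus, was 12.30, against 13.57 to 14.90. For members, counts of strain calls in E14.5 brain and of strain by stage calls in brain are given with and without it. So is the brain median of P90 minus E14.5. Most other values that use E14.5 brain include it.

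The deposited values appear to have been normalized apart for each tissue and stage, and they carry a shift between stages. The median signal over all probe sets was 7.26 to 7.30 in E14.5 brain, 7.12 to 7.17 on P1, 7.21 to 7.26 on P7 and 6.41 to 6.45 on P90, and in liver 6.73 to 6.76, 6.60 to 6.65, 6.35 to 6.42 and 5.03 to 5.08. Stages and tissues were therefore compared on values brought to one distribution over all 72 arrays, called rescaled here, as sizes with their spread over the 3 strains and with no p-value. A gene is counted as lower or higher when it differed at least 2-fold in the same direction in each strain.

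In the brain, all 39 genes had less signal at P90 than at E14.5 on average over the strains, and the 20 replication genes less so than the 19 mitosis genes. The median rescaled signal of the 39 genes (lowest, median and highest of 9 arrays) was 8.42, 9.70 and 10.10 at E14.5. It was 7.45, 7.66 and 7.80 on P1, 7.16, 7.32 and 7.52 on P7, and 5.80, 5.94 and 5.98 on P90. The arrays of each stage lay wholly below those of E14.5, and P1 and P7 overlapped. The median log2 difference, P90 minus E14.5, was -3.50, with 38 of 39 genes lower, against 16.3% of all genes tested. The median over all genes was -0.21. By strain the members' median was -3.78 in DBA/2J, -3.66 in 129S2 and -3.10 in C57BL/6J, and over all strains it was -3.60 without the E14.5 array that stood apart. The gene not counted was Ccne1, the cyclin E gene that helps start S phase, which was lower by less than the 2-fold limit (-0.66).

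Much of the brain difference lay between E14.5 and P1 on this scale, and little between P1 and P7. At P1 against E14.5, 30 of 39 genes were lower with a median difference of -1.94 (3.3% of all genes tested, median over all genes 0.03). At P7 against P1 only Mcm7, Gins1, a part of the active helicase, and Rfc3, a clamp loader subunit, were lower, and the median difference was -0.32 (0.388% of all genes). At P90 against P7, 22 of 39 genes were lower with a median difference of -1.36 (10% of all genes, median over all genes -0.18). The largest step fell between E14.5 and P1 for 29 members and between P7 and P90 for 9. That order depends on the scale: on deposited values it was 13 and 25, and by percentile rank within the array 15 and 22. No member was counted as higher in any of these comparisons, where 4.67%, 1.28% and 4.45% of all genes were in the 3 brain steps, 8.98%, 1.24% and 3.39% in the 3 liver steps, and 12.5% in brain and 13.6% in liver from E14.5 to P90.

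**Figure D1:**
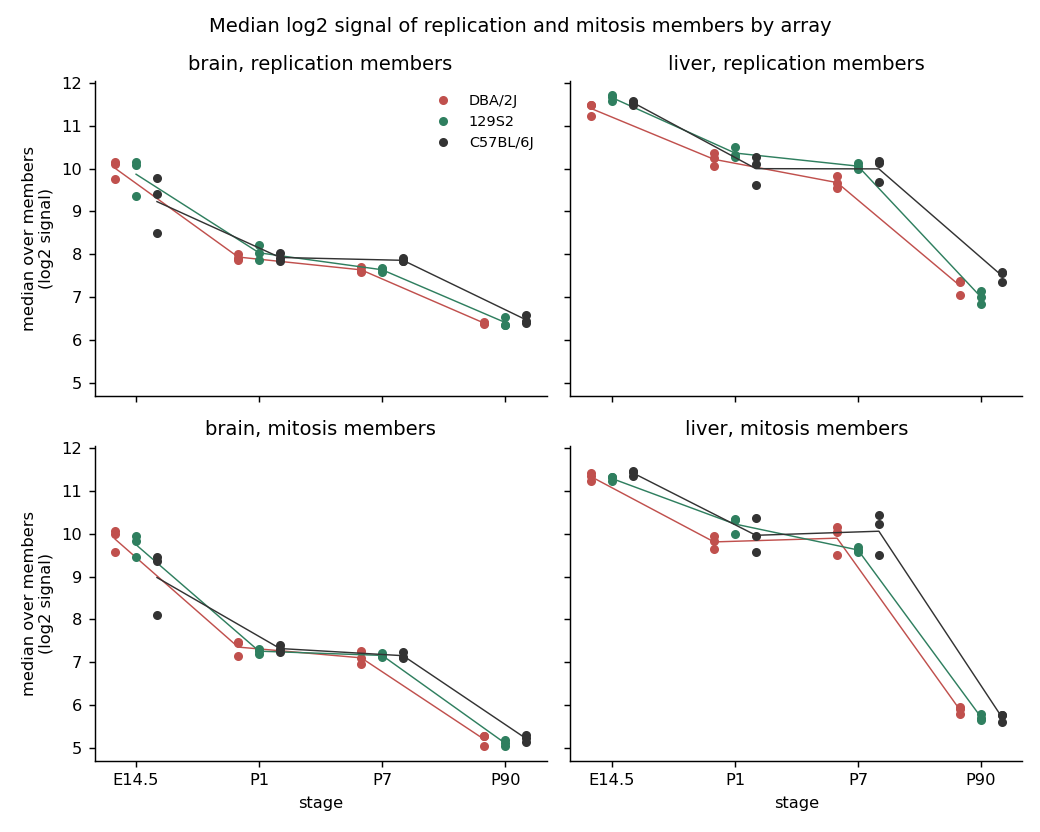
Median rescaled log2 signal of the replication genes and of the mitosis genes on each array (points), by stage, for brain and liver. Brain mitosis genes sit at 5.03 to 5.29 and replication genes at 6.34 to 6.57 on P90, against 8.11 to 10.06 and 8.50 to 10.16 at E14.5, and in liver the P1 and P7 arrays overlap with P90 below them.

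In the liver the members held an intermediate level at P1 and P7 and a low one in the adult. The median rescaled signal of the 39 genes was 11.24, 11.49 and 11.56 (lowest, median and highest array) at E14.5, 9.57, 10.02 and 10.36 on P1, 9.51, 9.83 and 10.23 on P7, and 6.16, 6.54 and 6.69 on P90. The P1 and P7 arrays overlapped, and neither overlapped E14.5 or P90. At P90 against E14.5 the median difference was -4.89 and all 39 genes were lower (19.3% of all genes, median over all genes -0.21). At P1 against E14.5, 26 of 39 were lower with a median of -1.44 (5.01% of all genes, median -0.05). At P7 against P1, 0 of 39 were lower with a median of -0.37 (0.54% of all genes), which is a count of sizes and not of a test. At P90 against P7, 38 of 39 were lower with a median of -3.36 (12.4% of all genes, median -0.15), the exception being Rfc3. The largest step lay between P7 and P90 for 36 members, and for 31 to 39 on the 5 other scales tried. In whole tissue, fewer cycling cells and less RNA per cell cannot be told apart.

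The mitosis genes lay further below their E14.5 level at P90 than the replication genes in both tissues. In brain the median difference was -4.57 over the 19 mitosis genes, all of them lower, and -2.86 over the 20 replication genes, 19 of them lower. In liver the medians were -5.69 and -4.03. The gap opened at different times. In brain, mitosis genes already had the lower median at P1 against E14.5 (-2.22, 18 of 19 lower, against -1.52 and 12 of 20 for replication) and again at P90 against P7 (-2.04, 16 of 19, against -0.82 and 6 of 20). In liver both groups were near each other at P1 against E14.5 (-1.45, 15 of 19, and -1.30, 11 of 20) and apart at P90 against P7 (-4.01, 19 of 19, and -2.56, 19 of 20). Probe sets of a gene group can differ in how far they can fall before they reach background. At P90, 19 of 19 mitosis and 12 of 20 replication probe sets were below the median signal of the array in brain, and 16 of 19 and 5 of 20 in liver. The part of that floor in the gap was not tested.

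**Figure D2:**
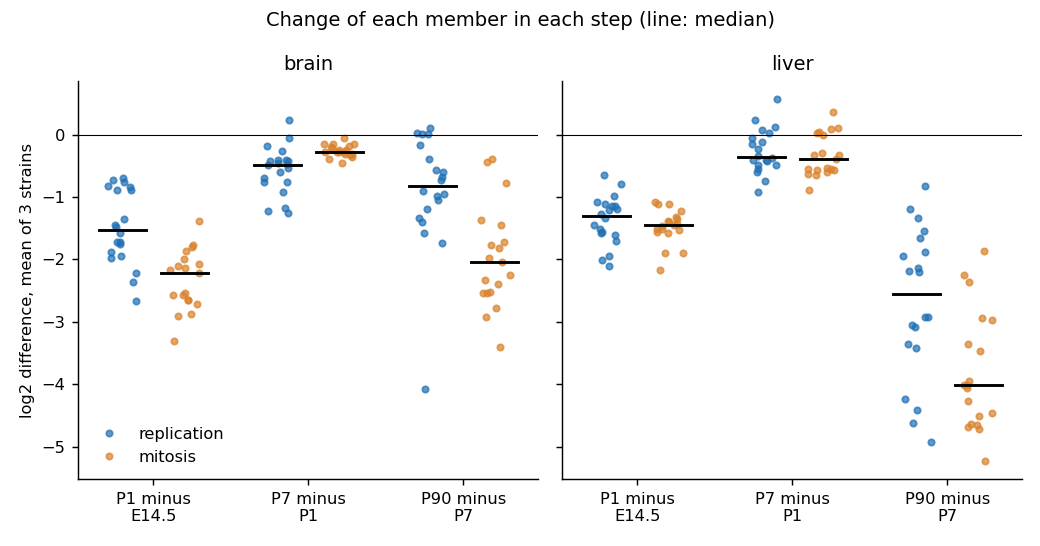
Log2 difference (rescaled signal) of each replication and mitosis gene for each step between stages, in brain and liver. Points are genes, each the mean of 3 strains, and lines are medians over genes. The mitosis median lies lower than the replication median at P1 minus E14.5 and at P90 minus P7 in brain, and at P90 minus P7 in liver. Both medians lie near 0 at P7 minus P1.

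Within the replication genes, helicase loading and firing differed more than the polymerase machinery in both tissues, while the 2 E-type cyclins had the smallest median of the 4 role groups in brain (-1.36) and the largest in liver (-5.30). The 10 helicase genes had a median P90 minus E14.5 difference of -3.29 in brain and -4.60 in liver, led in brain by Mcm5 (-4.39 ± 0.44, SD over 3 strains), a helicase subunit, and in liver by Cdc6 (-7.37 ± 0.16). RMA gives no detection call, so whether the lowest P90 signals lie above background is unknown, and the order of the members with such signals, among them Cdc6, Rrm2, Bub1 and Birc5, is an order of signal and no exact fold. The 5 polymerase, clamp and loader genes had medians of -2.34 and -2.85. In brain Pcna was lower by only 2.46-fold (-1.30 ± 0.26), and in liver Rfc3 was the smallest difference of all members (-1.51 ± 0.13), with Pola1, the catalytic polymerase alpha subunit, at -2.83 ± 0.03 and Pcna at -2.85 ± 0.04.

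Pcna is also used in DNA repair, outside S phase. Its brain signal (lowest, median and highest of 9 arrays) was 11.40, 12.38 and 12.62 at E14.5, 11.23, 11.54 and 11.70 on P1, 10.74, 11.06 and 11.28 on P7, and 11.01, 11.04 and 11.14 on P90. From P7 on the arrays overlapped, with a P90 minus P7 difference of 0.01 ± 0.03. In liver it was 13.29, 13.59 and 13.62 at E14.5, 11.93, 12.50 and 12.90 on P1, 11.95, 12.21 and 12.57 on P7, and 10.55, 10.71 and 10.78 on P90, where no P90 array reached any earlier one. Rfc3 in brain was low at both P7 and P90, with 6.08, 6.18 and 6.48 in P90 brain, against 5.96, 6.10 and 6.45 in P7 brain, all under the filter's 6.66, and the arrays overlapped.

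Among the genes of nucleotide supply, Rrm1 and Rrm2 split in the brain after P7. Rrm2, the subunit made in S phase, was the member furthest below its E14.5 level in brain (-6.83 ± 0.46). Its brain signal was 10.31, 11.77 and 11.86 at E14.5, 9.32, 9.55 and 10.01 on P1, 8.49, 8.85 and 9.43 on P7, and 4.44, 4.70 and 5.07 on P90. No 2 stages overlapped except P1 and P7. At P90 against P7 it was lower by 4.08 log2 units on average (-4.08 ± 0.08), while Rrm1, the large subunit of the same enzyme, differed by 0.03 ± 0.03 and the thymidylate synthase gene Tyms by 0.10 ± 0.07. Rrm1 had 7.63, 7.73 and 7.90 in P90 brain, against 7.54, 7.67 and 7.88 in P7 brain, and the arrays overlapped. In liver the P90 minus E14.5 difference of Rrm2 was -6.48 ± 0.51, with 12.55, 13.04 and 13.15 at E14.5, 11.14, 11.79 and 12.39 on P1, 10.94, 11.32 and 11.83 on P7, and 5.63, 6.32 and 7.31 on P90. All 3 nucleotide genes were lower at P90 than at P7 in each strain in liver, with a median of -1.95.

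The E-type cyclins and Cdc6 separated the tissues most. Ccne1 in brain was 7.75, 8.62 and 8.99 at E14.5, 7.59, 7.82 and 8.01 on P1, 7.87, 8.05 and 8.20 on P7, and 7.75, 7.86 and 8.08 on P90, so the stages overlapped (P90 minus E14.5, -0.66 ± 0.30). In liver it was 11.34, 11.52 and 11.84 at E14.5, 9.25, 9.99 and 10.34 on P1, 9.04, 9.40 and 9.83 on P7, and 7.32, 7.57 and 7.74 on P90 (-3.97 ± 0.12, 15.7-fold), with P90 below every other stage. Ccne2, its relative, was at 7.30, 8.24 and 8.39, then 6.22, 6.67 and 7.17, then 6.19, 6.72 and 7.01, then 5.90, 6.02 and 6.28 in brain from E14.5 to P90 (-2.06 ± 0.20). In liver the 4 stages gave 10.34, 10.81 and 11.44, then 8.11, 8.70 and 9.60, then 8.21, 8.71 and 9.07, then 3.66, 4.28 and 4.90 (-6.63 ± 0.33). Cdc6, in brain, gave 6.52, 7.95 and 8.19 at E14.5, 5.21, 5.32 and 6.06 on P1, 4.90, 4.99 and 5.07 on P7, and 3.92, 4.34 and 4.93 on P90. In liver Cdc6 gave 11.11, 11.40 and 11.68 at E14.5, 8.62, 9.42 and 9.92 on P1, 7.88, 8.57 and 9.36 on P7, and 3.67, 3.98 and 4.41 on P90. The P90 arrays of Cdc6 thus overlapped between brain and liver, and the E14.5 arrays lay apart, liver above brain.

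Among the mitosis genes, the checkpoint, the passenger complex and the mitotic chromosome went lowest. Median P90 minus E14.5 differences in brain and liver were -5.39 and -6.69 for Top2a and Mki67, the mitotic chromosome genes, -5.33 and -6.27 for the 4 checkpoint and ubiquitin ligase genes, -5.02 and -6.05 for the 4 passenger and cohesion genes, -4.35 and -5.43 for the 4 spindle and cytokinesis genes, and -3.76 and -4.71 for the 5 mitotic cyclins and kinases. Ube2c differed by -6.37 ± 0.58 in brain and -6.50 ± 0.05 in liver. Its brain arrays were at 9.31, 11.41 and 11.86 at E14.5, 7.66, 8.02 and 8.26 on P1, 7.40, 7.67 and 7.91 on P7, and 4.71, 4.91 and 5.08 on P90. E14.5 lay above and P90 below the overlapping P1 and P7 arrays. Cdca8 had 9.21, 10.97 and 11.37 in E14.5 brain, 8.01, 8.26 and 8.63 on P1, 7.60 to 8.16 on P7, and 4.85, 4.94 and 5.22 on P90 (-5.88 ± 0.55), in the same order.

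In liver the lowest mitosis differences in signal were those of Bub1, a checkpoint kinase, and Birc5, survivin of the passenger complex. Bub1 differed by -7.15 ± 0.05, with 10.83, 11.11 and 11.41 at E14.5, 8.35, 9.09 and 9.18 on P1, 7.99, 8.62 and 9.13 on P7, and 3.40, 3.99 and 4.49 on P90. Birc5 differed by -7.00 ± 0.03, with 11.86, 12.08 and 12.14 at E14.5, 10.11, 10.70 and 11.05 on P1, 9.72, 10.28 and 10.68 on P7, and 4.48, 5.11 and 5.43 on P90. For both, every P90 array was below every earlier one. Cdk1 itself differed less, by -3.95 ± 0.38 in brain and -3.62 ± 0.06 in liver. Mki67, the marker of cycling cells used in histology, differed by -5.40 ± 0.50 in brain, with 5.23, 5.35 and 5.52 in P90 brain, against 9.37, 10.95 and 11.40 in E14.5 brain, and differed by -6.67 ± 0.11 in liver.

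**Figure D3:**
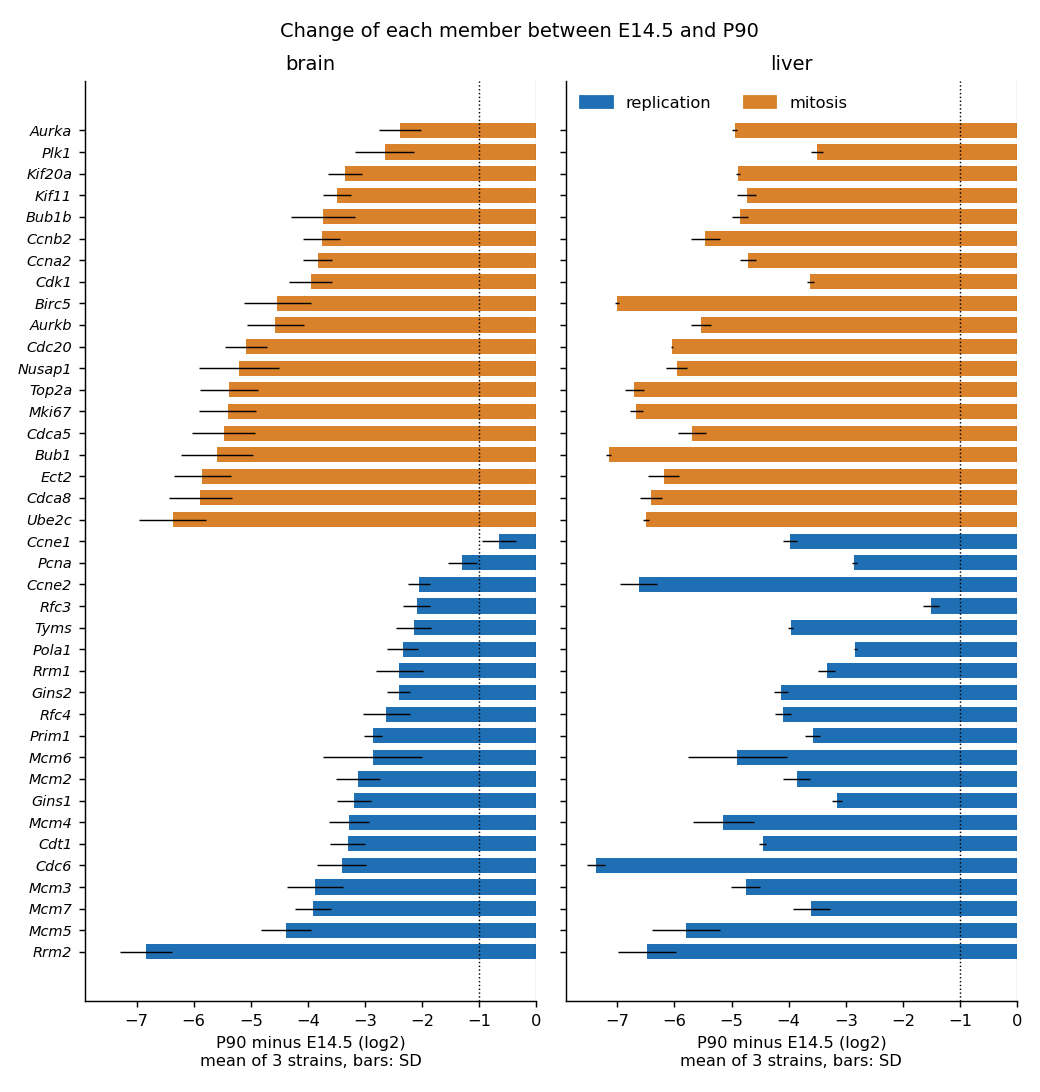
Log2 difference, P90 minus E14.5 (rescaled signal), of each member in brain and liver, replication and mitosis genes apart, as the mean over 3 strains with SD bars. Rrm2 is lowest in brain at -6.83 and Cdc6 in liver at -7.37, and the E-type cyclins and Cdc6 show the widest gaps between the tissues.

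Most further probe sets of these genes that passed the filter went in the same direction. Of the 39 genes, 28 had 45 further probe sets, of which 33 were above the filter in brain. Of those, 32 were lower at P90 than at E14.5 by at least 1 log2 unit, and in liver it was 35 of 36. A probe set passes the filter through its highest group, which favours those high at E14.5, so these counts are no independent support. Probe sets under the filter were not counted, and some of them were not lower at P90.

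Brain lay below liver from E14.5 to P7, and the tissues came close at P90. The brain minus liver median over the 39 genes was -1.68 at E14.5, with 30 genes lower (16.3% of all genes tested, median over all genes -0.17), -2.23 on P1 with 35 lower (19.3%, -0.10), and -2.32 on P7 with 38 lower (20.2%, -0.11). No member was counted as higher at these stages, where 16.4%, 19.1% and 19.5% of all genes were. At P90 it was -0.52 with 8 genes lower (20.2%) and 1 higher (21.2%), and the median over all genes was -0.16. Ccne2 was the 1 higher, by 1.78 ± 0.22, and Gins1 (-1.89) and Cdca5, the sororin gene of cohesion (-1.81), were the furthest below. At P90 the sign depends on the scale: the median was 0.50 on deposited values, 0.14 after scaling within each tissue and -0.87 after median centring.

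Taking the difference of the 2 tissues' changes from E14.5 to P90, brain differed less between the stages than liver. Brain change minus liver change had a median of 1.11 over the members (mitosis 0.96, replication 1.28), against -0.01 over all genes. The members with the largest values were Ccne2 (4.57 ± 0.51), Cdc6 (3.96 ± 0.44) and Ccne1 (3.32 ± 0.39), which act at entry into S phase. By step the members' medians were -0.59 on P1 minus E14.5, -0.02 on P7 minus P1 and 1.71 on P90 minus P7. By percentile rank the full change was reversed, with a median of -0.60 percentage points.

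A few members remained high in the adult. By percentile rank within the array, the members' median was 88.48 at E14.5, 66.29 on P1, 61.42 on P7 and 37.97 on P90 in brain, and 96.99, 90.76, 89.47 and 48.73 in liver. Probe sets differ in affinity, so this ranks signal, not transcript amount. In brain 35 members at E14.5, 8 at P1, 5 at P7 and 2 at P90 lay above the 75th percentile of the array, and in liver 38, 36, 36 and 2. The 3 members with the highest signal at P90 were Pcna, Mcm7 and Ccne1 in brain and Pcna, Mcm7 and Rrm1 in liver. Mcm7, a helicase subunit, had 8.25, 8.36 and 8.59 in P90 brain, against 11.67, 12.37 and 12.57 at E14.5, and 9.06, 9.54 and 9.64 in P90 liver, against 12.89, 13.06 and 13.16 at E14.5. Rrm1 had 8.06, 8.27 and 8.44 in P90 liver.

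Genes of the same pathways outside the list differed in the same direction in most cases. Of 36 further replication genes measured, 23 were lower in brain at P90 than at E14.5 (median -1.59) and 31 in liver with 1 higher (median -2.66). Of 44 further mitosis genes, 42 were lower in brain (median -2.89) and 40 in liver (median -4.05). The largest replication differences were in Uhrf1, which keeps DNA methylation at the fork, at -6.12 ± 0.60 in brain and -7.32 ± 0.40 in liver, followed in brain by Dbf4, Pole2 and Pole, and in liver by Clspn, Cdc7 and Pole2. The largest mitosis differences were in Cep55, Cks2, Prc1 and Cenpf in brain, from -5.22 ± 0.50 for Cep55, and in Kif18a, Aspm, Nuf2 and Cenpf in liver, from -5.83 ± 0.18 for Kif18a. In their promoters the split was weaker: TTTGAA was in 26 of the 41 promoters of these mitosis genes and 8 of the 42 of these replication genes, and the E2F letters were in 9 and 20.

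Genes that hold cells out of the cycle went in both directions. Of 19 measured, 6 were lower and 1 higher in brain (P90 minus E14.5, median -0.39), and 9 lower and 1 higher in liver (median -1.01). The inhibitor gene Cdkn1c was lower in both (-3.75 ± 0.31 in brain, -4.63 ± 0.49 in liver), while the stress gene Gadd45b was higher in brain (2.28 ± 0.02). Of 13 genes that drive G1, 8 were lower in brain (median -1.78) and 10 in liver (median -2.52), among them Cdk2 (-3.27 ± 0.37) in brain and E2f2, an activating E2F, in both (-3.02 ± 0.13 and -4.79 ± 0.33).

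Cell type markers differed between stages along with the cycling genes. In brain the summed signal of neural progenitor markers was 14.16, 14.46 and 14.68 (lowest, median and highest array, log2) at E14.5, 12.75, 13.06 and 13.31 on P1, 11.33, 11.51 and 11.69 on P7, and 10.36, 10.40 and 10.51 on P90, and 11 of 11 were lower at P90 than at E14.5. Neuron markers had medians of 14.29, 15.26, 15.64 and 15.71. Markers of cerebellar granule precursors had medians of 12.80, 12.05, 11.59 and 10.83, and those of oligodendrocyte precursors 10.21, 12.18, 13.00 and 12.57. In liver the summed erythroid signal was 15.58, 15.95 and 16.11 at E14.5, 13.51, 14.67 and 14.96 on P1, 12.15, 13.42 and 14.26 on P7, and 11.08, 11.27 and 11.60 on P90, with 10 of 10 lower at P90 than at E14.5. Neutrophil markers had medians of 13.87, 15.77, 14.72 and 9.34, hepatoblast markers 15.39, 15.37, 15.27 and 8.76, and hepatocyte markers 16.06, 16.79, 16.90 and 17.11. Array signal has no true zero, and the part of these cells in the members' differences was not tested.

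Strains were compared within a tissue, as deposited, with limma on all 36 arrays of the tissue. A gene was called when its Benjamini-Hochberg adjusted p over all genes tested was under 0.05 and its fold at least 1.5. Averaged over the stages, 0 of 39 members were called in any of the 6 contrasts. At an unadjusted p under 0.05 there were 8 for DBA/2J minus C57BL/6J, 10 for 129S2 minus C57BL/6J and 0 for 129S2 minus DBA/2J in brain, and 8, 8 and 9 in liver. All genes gave 1.26%, 1.26% and 1.06% called in brain and 2.7%, 3.28% and 2.72% in liver.

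In E14.5 brain, 21 members were called between strains, all higher in the strain set against C57BL/6J, and most rest on the array that stood apart. DBA/2J was higher than C57BL/6J for 19 members (2.42% of all genes called higher) with a median of 0.54 (all genes 0.04), and 129S2 for 12 (1.51%) with a median of 0.57 (all genes 0.01). Between 129S2 and DBA/2J there were 0, with 1 at an unadjusted p under 0.05 (1.54%). Without the third C57BL/6J array 4 and 1 members were called, and the medians were 0.23 and 0.20, with 37 and 38 of 39 higher. The 4 that remained for DBA/2J were Aurkb, Bub1, Bub1b and Nusap1, kinases and a microtubule binder of the spindle, and the 1 for 129S2 was Nusap1. Of the 4, Bub1 (0.15) and Bub1b (0.53) were not called with the mean of probe sets, nor Aurkb with array weights. None of the 4 was called when only the arrays compared were fitted. The 129S2 call of Nusap1 was also lost in that fit, and with the mean of probe sets (0.52). Single arrays of the other strains mattered too. Many DBA/2J calls, Cdk1 among them, were lost without DBA/2J replicate 2. Most 129S2 calls, Plk1 among them, were lost without 129S2 replicate 1 or without replicate 2. Among cell type markers, with the third C57BL/6J array included, the progenitor gene Hes5 was called higher than in C57BL/6J (0.84 in DBA/2J, 0.70 in 129S2), 1 of 11 progenitor genes. Olig1 was called lower (-1.20 and -0.99), 1 of 6 oligodendrocyte precursor genes. Nusap1 had 10.96, 11.43 and 11.36 in DBA/2J, 11.34, 11.30 and 10.82 in 129S2, and 10.36, 10.57 and 9.63 in C57BL/6J, with no overlap between C57BL/6J and either other strain. It differed by 1.06 (SE 0.16, limma adjusted p 2.92e-05) for DBA/2J, and by 0.78 (adjusted p 0.000276) without the third C57BL/6J array. Bub1 had 10.29, 10.71 and 10.56 in DBA/2J, 10.51, 10.44 and 9.92 in 129S2, and 9.68, 9.97 and 8.80 in C57BL/6J, so DBA/2J lay above C57BL/6J and 129S2 overlapped it. Ube2c in contrast had 11.52, 11.98 and 12.11 in DBA/2J, 11.98, 12.06 and 11.66 in 129S2, and 11.77, 11.66 and 9.92 in C57BL/6J, where only the third C57BL/6J array lay far below.

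In P1 brain, 0 members were called in any contrast, with 1, 0 and 0 at an unadjusted p under 0.05 (1.3%, 1.24% and 1.36% of all genes). At P7 and P90 in brain the 1 member called was Mcm6. In P90 brain it had 6.70, 6.82 and 6.63 in DBA/2J (mean 6.72 ± 0.10, SD, n = 3), 6.52, 6.55 and 6.69 in 129S2 (6.59 ± 0.09) and 7.69, 7.88 and 8.02 in C57BL/6J (7.86 ± 0.17). Every C57BL/6J array was above every array of the other strains, which overlapped. The differences were -1.15 for DBA/2J (limma adjusted p 6.12e-05, 1.1% of all genes called lower) and -1.28 for 129S2 (1.77e-05, 0.98%), with 0 members for 129S2 minus DBA/2J (1 unadjusted, 1.45%). At P7 Mcm6 had 8.03, 8.26 and 8.41 in DBA/2J, 8.29, 8.41 and 8.10 in 129S2, and 8.82, 9.01 and 9.22 in C57BL/6J, a difference of -0.78 (adjusted p 0.00963, 0.881% called lower) and of -0.75 (0.0127, 0.649%), with 0 for 129S2 minus DBA/2J (0 unadjusted, 1.11%).

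At E14.5 Mcm6 was not called. In E14.5 brain the arrays were 10.67, 10.89 and 10.91 in DBA/2J, 10.75, 10.85 and 10.03 in 129S2, and 10.23, 10.71 and 10.04 in C57BL/6J, which overlapped. In liver the E14.5 means were 12.36 in DBA/2J, 12.49 in 129S2 and 12.34 in C57BL/6J. A second Mcm6 probe set likewise had C57BL/6J highest in the adult, at lower signal, with means of 3.71, 3.72 and 4.86 in P90 brain and 3.32, 3.17 and 4.60 in P90 liver for DBA/2J, 129S2 and C57BL/6J. A probe set reads a short stretch of the transcript, and whether the strains differ in sequence there was not tested. The strain differences of Mcm6 in P90 brain stayed called with each of the 36 arrays left out in turn and under all 10 other settings, and at P7 with 34 of 36. The P7 calls were lost without C57BL/6J replicate 3 (-0.68 for DBA/2J and -0.65 for 129S2), and also without DBA/2J replicate 1 (-0.68) or 129S2 replicate 3 (-0.67). The P7 call for 129S2 was also lost with the mean of probe sets (-0.50).

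**Figure D4:**
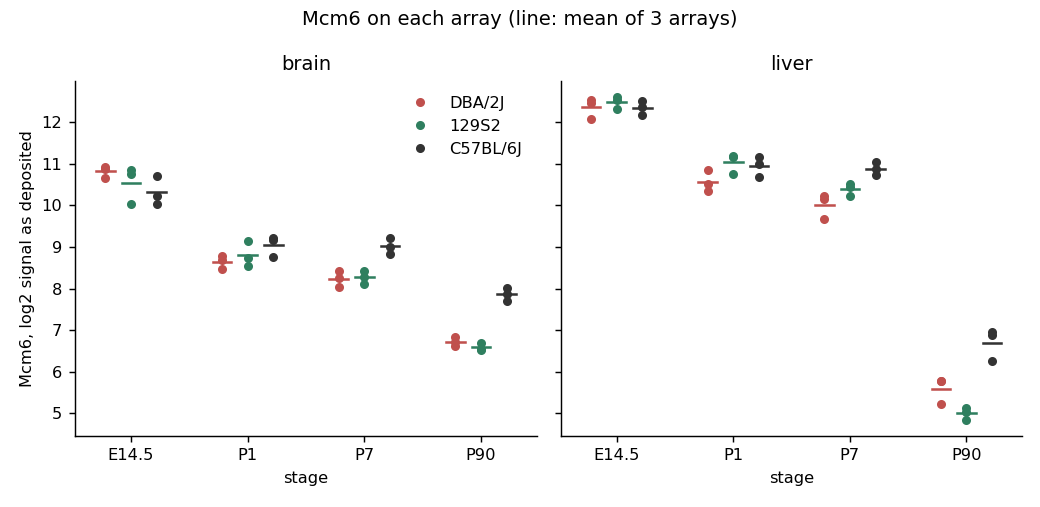
Mcm6 log2 signal as deposited on each array, by stage and strain, in brain and liver; points are arrays and lines are group means. C57BL/6J lies above DBA/2J and 129S2 at P90 in both tissues, by 1.15 and 1.28 in brain, and overlaps them at E14.5.

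In liver the strains differed at P1, P7 and P90 for some members. At E14.5, 0 members were called, with 3, 4 and 5 at an unadjusted p under 0.05 for DBA/2J minus C57BL/6J, 129S2 minus C57BL/6J and 129S2 minus DBA/2J (5.33%, 4.3% and 2.81% of all genes). At that stage 9 of 9 neutrophil genes were called lower in DBA/2J and 6 of 9 in 129S2 than in C57BL/6J, and 5 of 9 higher in 129S2 than in DBA/2J. At P1 5, 8 and 10 members were called, 16 in all. For 129S2 minus C57BL/6J all 8 rose (2.07% of all genes called higher), among them Cdc6 (1.00, adjusted p 8.67e-05), Ccne2, Mki67 and Rrm2, and for 129S2 minus DBA/2J all 10 rose (4.37%), led by Ube2c (0.96, adjusted p 0.00434). For DBA/2J minus C57BL/6J (8.06% of all genes called in either direction) the helicase genes Mcm2 and Mcm3 rose by 0.60 each while Aurkb, Ccnb2 and Kif20a, a cytokinesis kinesin, fell by 0.71, 0.62 and 0.94. Cdc6 had 9.21, 8.89 and 9.31 in DBA/2J, 9.69, 9.79 and 9.70 in 129S2, and 8.54, 8.46 and 9.18 in C57BL/6J, with 129S2 above both. Ube2c had 11.18, 11.04 and 11.30 in DBA/2J, 12.06, 12.17 and 12.16 in 129S2, and 11.65, 11.43 and 11.89 in C57BL/6J, so the 3 strains did not overlap and 129S2 was highest. Kif20a had 7.18, 7.34 and 7.69 in DBA/2J, 8.20, 8.22 and 8.34 in 129S2, and 8.14, 8.33 and 8.56 in C57BL/6J, with DBA/2J below both. The counts rest in part on single arrays: 1 member was called for DBA/2J minus C57BL/6J without DBA/2J replicate 1, 2 for 129S2 minus C57BL/6J without C57BL/6J replicate 1, and 5 for 129S2 minus DBA/2J without DBA/2J replicate 2. For DBA/2J minus C57BL/6J, Mcm2 and Mcm3 were each called under 6 of 10 other settings, where Mcm3 was as low as 0.14. Ccnb2 was called there under 7 of 10, and Aurkb and Kif20a under all 10. The 129S2 minus C57BL/6J call of Rrm2 held under 5 of 10 settings and in 17 of 36 fits with an array left out. Erythroid sums at P1 were 14.02 to 14.83 in DBA/2J, 14.67 to 14.96 in 129S2 and 13.51 to 14.51 in C57BL/6J, and 6 of 10 erythroid genes were called higher in 129S2 than in C57BL/6J. In 129S2, 3 of 5 B lineage genes were called lower than in C57BL/6J and 2 lower than in DBA/2J, and 2 of 4 hepatoblast genes, Dlk1 (0.72) and Gpc3 (0.96), higher than in DBA/2J. The part of these cells in the members' differences was not tested.

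At P7 in liver 4 replication members were lower in DBA/2J than in C57BL/6J (2.96% of all genes called lower), and 3 of them higher in 129S2 than in DBA/2J (3.67% called higher). They were Cdc6 (-0.94, adjusted p 0.000179), Mcm6 (-0.86, 0.00222), Mcm2 (-0.64) and Mcm3 (-0.60), and for 129S2 minus DBA/2J Cdc6 (0.63), Mcm2 (0.74) and Mcm3 (0.72). Mcm2 had 10.11, 10.11 and 10.53 in DBA/2J, 10.89, 11.15 and 10.93 in 129S2, and 10.82, 10.67 and 11.19 in C57BL/6J, and every DBA/2J array lay below the rest. Mcm3 had 9.03, 9.11 and 8.99 in DBA/2J, 9.66, 9.82 and 9.81 in 129S2, and 9.60, 9.41 and 9.90 in C57BL/6J, and Cdc6 had 7.86, 7.55 and 7.94 in DBA/2J, 8.50, 8.50 and 8.25 in 129S2, and 8.82, 8.29 and 9.05 in C57BL/6J. For both genes DBA/2J again lay below the rest. Mcm6 had 9.67, 10.23 and 10.15 in DBA/2J, 10.23, 10.52 and 10.44 in 129S2, and 10.86, 10.72 and 11.05 in C57BL/6J, which was above both. Without C57BL/6J replicate 3, 2 members were called for DBA/2J minus C57BL/6J, Mcm2 and Mcm3 being lost. With the mean of probe sets Mcm3 (-0.37) and Mcm6 (-0.58) were lost there, and Mcm3 (0.33) for 129S2 minus DBA/2J. That last contrast had 2 members without DBA/2J replicate 2. For 129S2 minus C57BL/6J there were 0, with 4 at an unadjusted p under 0.05 (5.33%). Erythroid sums ran from 12.15 to 13.59 in DBA/2J, 13.32 to 13.52 in 129S2 and 13.16 to 14.26 in C57BL/6J, and 9 of 10 erythroid genes were called lower in DBA/2J than in C57BL/6J. Of 9 neutrophil genes, 5 were called lower in DBA/2J and 9 in 129S2 than in C57BL/6J. Their part in the members' differences was not tested.

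At P90 in liver, Mcm6 and Rrm2 were lower in both other strains than in C57BL/6J. DBA/2J was lower than C57BL/6J for Mcm6 (-1.11, SE 0.19, adjusted p 8.33e-05) and Rrm2 (-1.29, 3.27e-05), with 2.96% of all genes called lower, and 129S2 for Mcm6 (-1.69, 4.87e-08), Mcm5 (-0.98, 0.000501), Rrm2 (-0.93, 0.00131) and Mcm4, another helicase subunit (-0.86, 2.15e-05), with 4.79%. With the mean of probe sets the 129S2 calls of Mcm5 (-0.40) and Rrm2 (-0.52) were lost. Of 9 neutrophil genes 3, Prtn3, S100a8 and S100a9, were called lower in both DBA/2J and 129S2 than in C57BL/6J, and neutrophil sums were 9.28 to 9.34 in DBA/2J, 9.34 to 9.37 in 129S2 and 9.44 to 10.36 in C57BL/6J. Their part in the members' differences was not tested. Mcm6 had 5.78, 5.78 and 5.21 in DBA/2J, 5.13, 5.03 and 4.85 in 129S2, and 6.88, 6.25 and 6.96 in C57BL/6J, and the 3 strains did not overlap. Rrm2 had 4.68, 4.29 and 4.16 in DBA/2J, 4.76, 4.54 and 4.91 in 129S2, and 5.73, 5.78 and 5.49 in C57BL/6J, with C57BL/6J above both. Between 129S2 and DBA/2J only Mcm6 was called (-0.59, adjusted p 0.0341, 3.15%), a call lost under 4 of 10 settings and without replicate 1 or 2 of DBA/2J (-0.49 each) or replicate 2 or 3 of 129S2 (-0.60 and -0.51). Mcm5 had 5.98, 5.65 and 5.21 in DBA/2J, 5.32, 5.05 and 4.77 in 129S2, and 6.20, 5.76 and 6.12 in C57BL/6J, where 129S2 lay below C57BL/6J and DBA/2J overlapped both. Mcm4 had 5.78, 5.82 and 5.42 in DBA/2J, 5.05, 5.11 and 5.11 in 129S2, and 6.06, 5.72 and 6.06 in C57BL/6J, with every 129S2 array below the rest. All these P90 liver arrays of Rrm2, Mcm5 and Mcm4 lay under the filter's 6.66, and so did those of Mcm6 in DBA/2J and 129S2. The median over all probe sets was 5.03 to 5.08 there. A gene passes the filter through its highest group, so these calls rest on low signals whose distance from background is unknown.

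A limma test of whether the strain difference changed with stage called 6 members in brain, against 4.72% of all genes, and 16 in liver, against 31.8%. It compares strain differences across sets that appear to have been normalized apart. A change with stage and a difference in normalization cannot be told apart by it, and in liver such calls were common among all genes. In brain 5 of the 6, all mitosis genes, were not called without the third C57BL/6J array of E14.5, and Mcm6 was the 1 that remained.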

How the data were processed

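RNA of whole brain and whole liver was hybridised to Affymetrix Mouse 430 2.0 arrays, 72 in all, 3 for each of 24 groups of strain, tissue and stage. The values are log2 signals made with RMA by the authors, per the submitters' processing notes. Equal values recur within a tissue and stage and never across, so each of the 8 sets of 9 arrays appears to have been normalized apart. Probe sets were named through the platform's annotation. Genes needed a highest group mean over 6.66, which left 14181 in brain, 13145 in liver and 15071 in either.

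Strains were tested on deposited values with limma 3.58.1 in R 4.3.3, one mean per group over the 36 arrays of a tissue. Stages and tissues were compared by size after quantile normalization of all 72 arrays (Python 3.11.15, pandas 2.3.3, numpy 2.4.6), without p-values, since stage and set normalization cannot be told apart. The strain fits were tested on simulated data. Replicate numbers were not taken to pair arrays of different strains, since same-numbered ones had a median correlation of 0.04, over 0.1 in 27 of 72 pairs; same-numbered brain and liver arrays were not compared in a test. Every member could be named, and other genes were named only as the 4 largest differences of a list and tissue or when called between strains. The members and gene lists were chosen with earlier results of these data known. Alternatives are given in the closing section.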

Additional observations from a re-analysis of the deposited data

Results flagged for a closer look

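A limma test of strain by stage called 22 gene and tissue pairs, 6 in brain (13 at an unadjusted p under 0.05, 4.72% of all genes called) and 16 in liver (31.8% of all genes called). The test spans sets that appear to have been normalized apart, so a change with stage and a difference in normalization cannot be told apart. Each value is the largest difference between 2 stages of a strain difference, in log2 units. In brain these were Mcm6 at 1.64 (adjusted p 0.000912), Bub1 at 1.06, Top2a at 1.05, Nusap1 at 1.05 (adjusted p 0.0161), Aurkb at 1.04 and Bub1b at 0.998. Without the third C57BL/6J array of E14.5 brain only Mcm6 was called. In liver the helicase genes gave 1.84 for Mcm6 (adjusted p 3.60e-05), 1.47 for Mcm5 (0.00251), 1.34 for Mcm4 (7.20e-05), 1.25 for Mcm2 (0.000110), 1.20 for Mcm3 and 0.965 for Mcm7, and the loader Cdc6 gave 1.34 (0.000280). Other replication members gave 1.56 for Rrm2 (0.00115), 1.39 for Ccne2, 0.871 for Prim1, which primes the new strand, and 0.694 for Pcna. Mitosis members gave 1.07 for Ccnb2, 1.02 for Aurkb, 0.987 for Mki67, 0.967 for Kif20a and 0.606 for Bub1b.

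In 5 of 468 gene, stage and strain contrasts searched, all arrays of one strain moved one way in brain and the opposite way in liver. These differences between tissues were not tested. The search covered the members only, and no such count was made over all genes. Whether 5 of 468 is more than chance separation of arrays would give was therefore not tested. At E14.5, brain minus liver was 0.777 for Mcm2 in DBA/2J minus C57BL/6J (0.61 in brain, and 0.39 and not called without the third C57BL/6J brain array, -0.16 in liver), 1.34 for Nusap1 in 129S2 minus C57BL/6J (0.97, and 0.69 without that array, -0.37) and -0.556 for Ccne1 in 129S2 minus DBA/2J (-0.32, 0.24). At P1 it was -1.25 for Ccne2 in 129S2 minus C57BL/6J (-0.45, 0.80), and at P7 -0.562 for Ccne1 in 129S2 minus DBA/2J (-0.09, 0.47).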

How the results depend on the processing

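None of the member strain differences called was turned in direction by the alternatives run on it. Values are given here where a count or median moved past its limit, and the cause was not tested unless the setting itself shows it. On deposited values, members lower numbered 1 at P7 minus P1 in brain and 34 at P90 minus P7, with medians of -0.23 and -2.34, -4.42 for brain P90 minus E14.5, and -1.79, -4.40 and -6.56 for liver P1 minus E14.5, P90 minus P7 and P90 minus E14.5. Mitosis minus replication medians were then -1.52 and -2.05 in brain for P90 minus P7 and P90 minus E14.5, and brain minus liver was -1.61 at P1, -1.53 at P7, 0.50 at P90 and 1.86 for the change. The step with the largest fall in brain was P1 minus E14.5 for 13 members on deposited values and 15 by percentile rank, and by rank brain change minus liver change was reversed at -0.60 percentage points. With quantile normalization within each tissue, mitosis minus replication was -1.35 and -1.99 in brain for P90 minus P7 and P90 minus E14.5 and -1.35 in liver for P90 minus P7, liver P90 minus E14.5 was -5.02, and brain minus liver was -1.21, -1.57, -1.65 and 0.14 from E14.5 to P90. With median centring, brain P90 minus P7 was -1.53 (mitosis minus replication -1.52, and -2.05 for P90 minus E14.5), liver P1 minus E14.5 was -1.66, liver P90 minus P7 was -3.07, brain minus liver at P90 was -0.87, and averaged over stages 1 member was called for DBA/2J minus C57BL/6J in liver. With the mean of probe sets, medians were -0.98 for brain P90 minus P7, -2.82 for liver P90 minus P7 and -4.14 for liver P90 minus E14.5, mitosis minus replication was -0.88, -1.49, -0.93 and -1.10 for brain P90 minus P7, brain P90 minus E14.5, liver P90 minus P7 and liver P90 minus E14.5 and was reversed at 0.014 for liver P1 minus E14.5, brain minus liver was -1.98 at P1 and -2.11 at P7, the strain by stage calls in brain were 3, and liver strain calls were 2 at E14.5 and 2 at P7. With a 1.5-fold limit, 6 members in brain and 1 in liver were lower at P7 minus P1. With a 4-fold limit there were 9, 0 and 10 for the 3 brain steps and 0 for liver P1 minus E14.5. Without Ccne1, Ccne2 and Ccna2 mitosis minus replication for brain P90 minus E14.5 was -1.83. With no fold minimum, strain calls averaged over stages were 4 and 4 in brain against C57BL/6J, 3, 6 and 7 in liver, and 2 in E14.5 liver. Array weights gave 3 members in E14.5 brain, 2 in E14.5 liver and 1 for DBA/2J minus C57BL/6J averaged in liver. Fitting only the arrays compared gave 0 members in E14.5 brain and 7 in P1 liver, with fewer arrays behind the spread. With each array left out in turn (the stage-specific counts chosen after seeing the data), mitosis minus replication ran from -1.81 to -1.68 for brain P90 minus E14.5 and from -1.54 to -1.41 for liver P90 minus P7, brain minus liver at P7 from -2.43 to -2.25, and calls from 4 to 33 in E14.5 brain, 0 to 1 in P7 brain, 0 to 1 in E14.5 liver, 4 to 9 in P7 liver, 1 to 15 for strain by stage in brain and 0 to 1 for DBA/2J minus C57BL/6J averaged in liver. The replicate number as a block gave 21 calls in E14.5 brain, 0, 1 and 1 later, 0, 13, 4 and 4 in liver by stage, 7 and 13 for strain by stage in brain and liver and 0 averaged over stages, and it moved no count by over 1.5 times. Same-numbered arrays of the 2 tissues had a median correlation of 0.13 (over 0.1 in 19 of 36 pairs), against -0.05 for different numbers. Arrays near background and 3 arrays a group limit the precision.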

Other observations

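Outside the list, several genes of the same pathways were called between strains at more than 1 stage, on deposited values (limma adjusted p), and 4 are given here, chosen after their values were seen. Ccnd1, cyclin D1, which drives G1, was higher than in C57BL/6J in brain by 1.29 (5.15e-07), 0.97 (6.24e-05) and 0.80 (0.000845) in DBA/2J at E14.5, P1 and P7, and by 0.98 (5.09e-05), 1.06 (2.09e-05) and 0.86 (0.000362) in 129S2. In liver Ccnd1 was higher in DBA/2J by 1.20 (0.000135) at E14.5, 0.94 (0.00123) at P1 and 1.06 (0.000743) at P7, in 129S2 by 1.14 (0.000348) at E14.5 and 1.10 (0.000383) at P7, and in DBA/2J lower by 1.51 log2 units (difference -1.51, 4.10e-06) at P90. Rpa3, a subunit of the single-strand binding protein, was higher in DBA/2J brain averaged over stages by 1.14 (4.53e-08), and Ncapd2, a condensin subunit, lower by 0.82 (difference -0.82, 2.46e-08). Spc25, a kinetochore gene, was lower in 129S2 than in DBA/2J liver at P1 (-0.71, 0.0178), P7 (-0.85, 0.00649) and P90 (-1.07, 0.000709). A probe set reads a short stretch of a transcript, and whether the strains differ in sequence there was not tested.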
